A study of Pomacea canaliculata with 36 samples.

Results

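The net change across the middle of eye regeneration, from 9 to 15 days post amputation (dpa), was measured in *Pomacea canaliculata*, the apple snail. The comparison sets 4 libraries of 15dpa against 4 libraries of 9dpa, 8 of the 36 libraries of the series, chosen by their labels, with the 12dpa libraries left out of the contrast. Each library holds polyadenylated RNA, labelled as from eye stalk. The 15dpa and 9dpa stalks differ, as far as the labels say, only in the days since the cut, and no age, sex or strain is given. The uncut stalks (Intact, 4 libraries) and the 4 libraries each of 1, 3, 6, 12, 21 and 28 dpa are used below as points of orientation. The design text of the series names 7dpa where the labels say 6dpa, so the day of that group is uncertain, and the labels are followed here. Whether the 4 libraries of each time point stem from different snails is not in the labels. The p-values therefore rest on library-to-library spread, some of which may be technical.

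The eye of this freshwater snail is of the camera type, with a lens in front of a cup-shaped retina, and sits near the tip of a stalk. After amputation the whole eye can be rebuilt. Regeneration of such an organ is generally described as closure of the wound, growth of a mass of dividing cells and then formation and maturation of the specialised tissues. The rows of the count table carry locus identifiers, and no product names come with them in the sources used here, so no role can be given to any gene and the tissue could not be checked against markers of lens, retina or nerve. Genes are therefore grouped by how they behaved in libraries outside the comparison, above all by their level at 1dpa against Intact.

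Total counts lay between 25484033 and 27308836 in the 15dpa libraries and between 25108496 and 28060773 in the 9dpa libraries. Levels are counts relative to the TMM-scaled library size, in CPM, where 1 CPM stood for 26.5 to 28.0 counts in the 15dpa libraries and 25.3 to 30.6 in the 9dpa libraries. They are not divided by gene length, and so compare libraries and not genes. Of 21131 genes 17341 had enough counts to be tested. Intervals of counting error are not given, because the spread between libraries was larger than sampling noise in all 12 pairs of libraries within the groups.

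Among the genes called between 9 and 15 days, rises in relative level outnumbered falls and were larger. Higher levels at 15dpa than at 9dpa were found for 781 genes and lower levels for 363 (edgeR quasi-likelihood test, adjusted p below 0.05), that is 4.5% and 2.09% of the genes tested, and 6.6% in all. The median log2 fold change was 1.05 over the genes that rose and -0.59 over those that fell, and -0.01 over all genes. Called or not, 8376 genes had a positive log2 fold change and 8964 a negative one. A change of 2-fold or more was seen in 415 of the genes that rose and in 88 of those that fell, and of 8-fold or more in 28 and 8. The 15dpa and 9dpa libraries did not overlap for 671 of the genes that rose and 313 of those that fell, against 2178 of all genes, or 12.6%. The genes were called on these same libraries, which raises both counts, so they are no separate support for the calls. In bulk RNA, a change in the number of cells of a type and a change in RNA per cell cannot be told apart. With limma-voom the calls were 1302 higher and 970 lower, so that 57.3% of calls were upward in place of 68.3%. Both numbers depended on which libraries were in the fit. Leaving out 15dpa replicates 1 to 4 in turn gave 395, 215, 188 and 232 falls. Leaving out 9dpa replicates 1 to 4 in turn gave 295, 248, 230 and 287 falls. The 2-fold falls numbered 55 without 15dpa replicate 3. The number of rises was below 781, between 555 and 720, when any 1 of the 8 libraries was left out. Each such fit also has fewer libraries to test with.

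**Figure D1:**
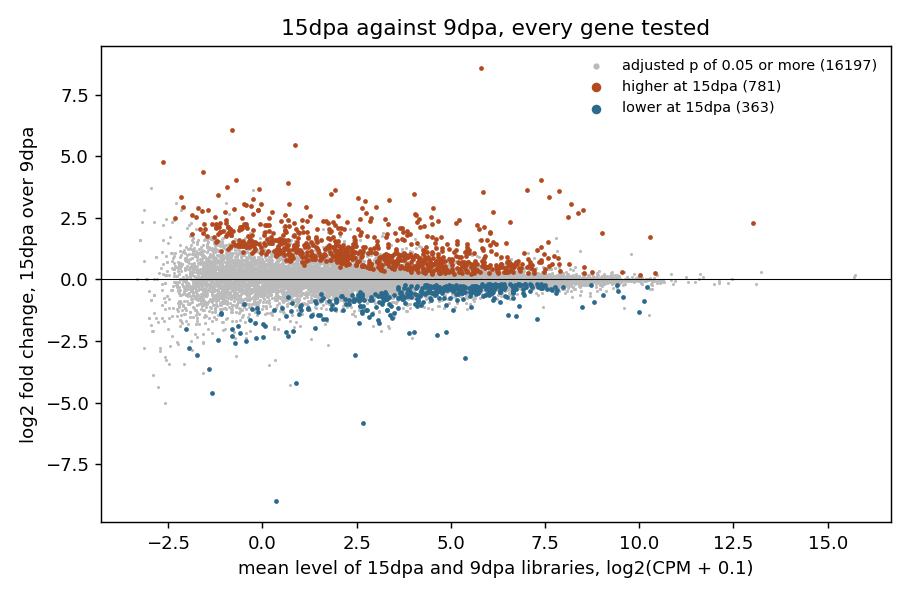
Log2 fold change of 15dpa over 9dpa for each of the 17341 genes tested, against the mean level of both groups as log2(CPM + 0.1). Genes with an adjusted p below 0.05 are coloured, 781 higher and 363 lower at 15dpa, and the rises reach larger folds than the falls over most of the range of levels.

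Many of the rises were of genes that had been far lower in the stalk 1 day after amputation than before it. A gene is called lost here where it was lower at 1dpa than in Intact by a log2 fold change of -3 or less at an adjusted p below 0.05. That holds for 1290 genes, or 7.44% of those tested. The groups set against each other there are not 15dpa or 9dpa. The fit and its estimate of spread take in all 36 libraries, however, so the calls are not fully independent. At 15dpa 316 of them were higher than at 9dpa, 13 were lower and 961 were not called. The share called higher was thus 24.5% against 4.5% of all genes, and the median log2 fold change of the list was 0.37 against -0.01. The 316 genes were 40.5% of all rises. More broadly, 518 of the 781 rises were lower at 1dpa than in Intact at any fold, 66.3% against 39.7% of all genes, and 142 were higher, 18.2% against 37.2%.

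Measured as a share of all counts, the 1290 lost genes took 4.77, 3.99, 4.17 and 4.37% of the counts in the 15dpa libraries, replicates 1 to 4, and 2.50, 1.97, 2.58 and 2.11% in the 9dpa libraries. The groups do not overlap, and at 9dpa replicates 1 and 3 held more than replicates 2 and 4. The means were 4.32 ± 0.334% at 15dpa and 2.29 ± 0.297% at 9dpa (SD, n = 4 each), a difference of 2.03 percentage points and a ratio of 1.89 (exact permutation test, two-sided, p = 0.02857, the smallest that 4 against 4 libraries can give, and 0.0857 after Benjamini-Hochberg adjustment over 3 such shares). In Intact the same genes held 13.6 ± 1.33%, on day 1 0.399 ± 0.0381%, on day 6 1.35 ± 0.117%, on day 12 4.13 ± 0.617%, on day 21 4.95 ± 0.301% and on day 28 6.44 ± 0.463% (SD, n = 4 each). The 100 genes of highest level in Intact, of which 22 are also lost genes, took 26.9 ± 1.23% of counts at 15dpa and 24.5 ± 2.01% at 9dpa, a difference with p = 0.0571 (exact permutation test, adjusted 0.0857). After adjustment neither this share nor that of the lost genes passed 0.05. With 4 against 4 libraries, the smallest possible p passes this adjustment only where more than 1 of the 3 shares reaches it. LOC112562530, in both lists, averaged 28995 ± 4446 CPM in Intact, 13734 ± 1954 CPM at 15dpa and 2815 ± 1437 CPM at 9dpa (SD, n = 4 each). A large part of both differences thus came from this 1 gene. Over the 100 genes of highest level in Intact the median log2 fold change was 0.03, with 57 positive and 43 negative.

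**Figure D2:**
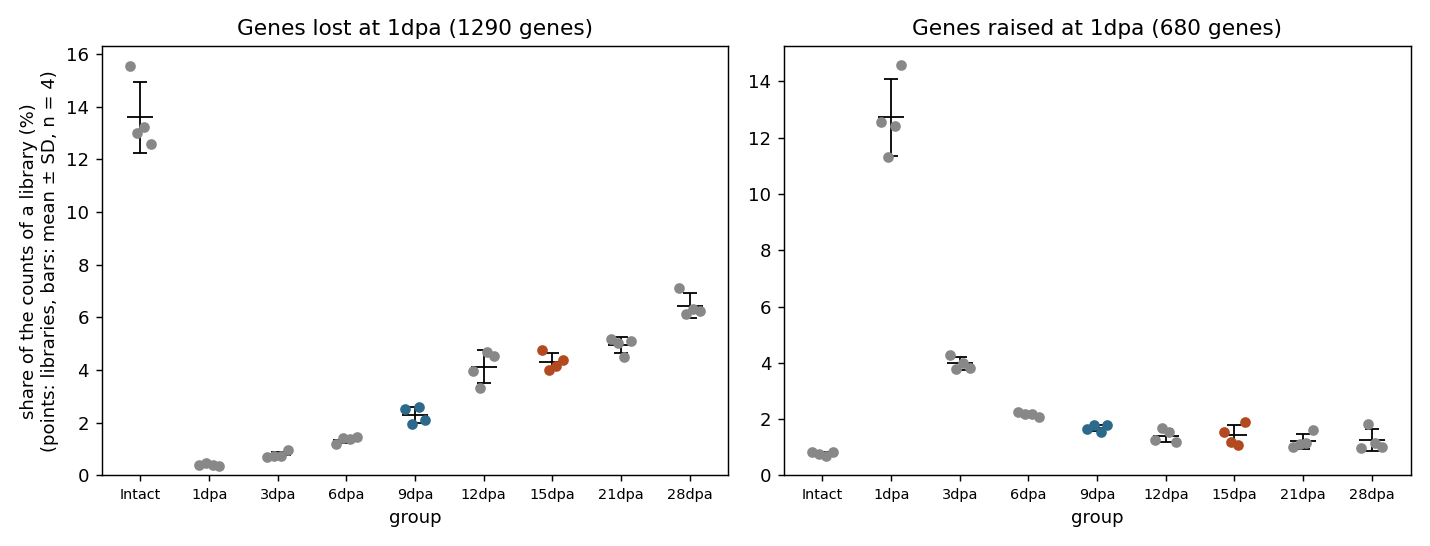
Share of the counts of each library, in percent, held by the 1290 genes lost at 1dpa (left) and the 680 genes raised at 1dpa (right), for all 9 groups in the order of time, with points for libraries and bars for mean ± SD (n = 4). On the left the 15dpa libraries, between 3.99 and 4.77%, lie above the 9dpa libraries, between 1.97 and 2.58%, and on the right both groups overlap.

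The 26 genes named for their fold, p or CPM difference were taken from called genes whose 15dpa and 9dpa libraries do not overlap, so that their groups are apart by choice. LOC112567738, a lost gene, had 324, 290.3, 337 and 325 CPM at 15dpa, against 25.9, 13.8, 26.9 and 10.8 CPM at 9dpa. Within 9dpa replicates 1 and 3 stand above replicates 2 and 4. Its log2 fold change was 4.05 ± 0.527 (SE; adjusted p = 4.57e-06, edgeR), a ratio of means of 16.5. LOC112571947 had 305, 185, 235 and 239 CPM at 15dpa and 29.4, 12.3, 25.7 and 10.7 CPM at 9dpa (log2 fold change 3.63 ± 0.608 SE, adjusted p = 0.00017 by edgeR). LOC112555734 had 482, 370.5, 441.1 and 435 CPM at 15dpa and 57.1, 18.6, 53.6 and 16.7 CPM at 9dpa (log2 fold change 3.57 ± 0.690 SE, adjusted p = 0.00105 by edgeR). In all 3, 9dpa replicates 1 and 3 were above replicates 2 and 4. They were still far from the uncut stalk at 15dpa. LOC112567738 stood at 2479 ± 92.5 CPM in Intact, 19.3 ± 8.24 on day 9, 589 ± 142 on day 12, 319 ± 20.2 on day 15, 794 ± 138 on day 21 and 1517 ± 177 on day 28 (SD, n = 4 each). LOC112571947 stood at 3673 ± 476 CPM in Intact, 19.5 ± 9.44 on day 9, 241 ± 49.3 on day 15 and 514 ± 92.3 on day 28, and was then still lower than Intact (log2 fold change -2.84, adjusted p = 0.000329).

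Among the rises without overlap, the smallest p-values were those of LOC112555961, LOC112563614, LOC112555166 and LOC112573567. LOC112555961 had 855, 787, 827 and 809.7 CPM at 15dpa, against 208, 222, 241 and 216 CPM at 9dpa (log2 fold change 1.89 ± 0.0997 SE, adjusted p = 2.45e-14 by edgeR). At 12dpa it was higher still, at 1296 ± 209 CPM, and at 28dpa, at 2407 ± 195 CPM, it exceeded the 1987 ± 99.6 CPM of Intact (log2 fold change 0.28, adjusted p = 0.0287). LOC112563614 had 37.9, 33.5, 33.04 and 33.2 CPM at 15dpa and 11.1, 9.21, 11.7 and 10.4 CPM at 9dpa (log2 fold change 1.70 ± 0.109, adjusted p = 2.62e-12). The means of this gene on days 12, 15 and 21 were close together, with 32.2 ± 5.79 CPM on day 12, 34.4 ± 2.34 on day 15, 35.3 ± 1.60 on day 21 and 57.6 ± 4.57 on day 28, against 207 ± 5.67 in Intact. LOC112555166 had 19.8, 15.1, 21.0 and 17.1 CPM at 15dpa and 2.41, 1.49, 2.64 and 1.41 CPM at 9dpa (log2 fold change 3.21 ± 0.252 SE, adjusted p = 5.78e-10 by edgeR). LOC112573567 was between 55.2 and 61.5 CPM at 15dpa and between 8.31 and 13.9 CPM at 9dpa (log2 fold change 2.29 ± 0.187 SE, adjusted p = 7.83e-10 by edgeR).

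Among the genes whose libraries did not overlap, LOC112562530 had the largest difference in CPM, which is not corrected for gene length. It had 16493, 13273, 11882 and 13286 CPM at 15dpa, against 4523, 1676, 3483 and 1576 CPM at 9dpa (log2 fold change 2.29 ± 0.618 SE, adjusted p = 0.0205 by edgeR). The 9dpa libraries again split into replicates 1 and 3, high, and 2 and 4, low. The call was lost without 9dpa replicate 2 (adjusted p = 0.0785) or 9dpa replicate 4 (adjusted p = 0.0738). LOC112559381, with 764, 529, 544 and 693 CPM at 15dpa against 163, 46.5, 100.3 and 53.8 CPM at 9dpa, again had replicates 2 and 4 lowest at 9dpa (log2 fold change 2.80 ± 0.715 SE, adjusted p = 0.014 by edgeR). Its call too was lost, with adjusted p-values of 0.0602 without 9dpa replicate 2 and 0.0539 without 9dpa replicate 4. LOC112563881, with 1928 ± 209 CPM at 15dpa against 583 ± 179 CPM at 9dpa, had a log2 fold change of 1.73 ± 0.184 (adjusted p = 9.1e-08). It lay above its 15dpa level at 12dpa, at 2932 ± 496 CPM, and below the 3176 ± 169 CPM of Intact at 15dpa.

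**Figure D3:**
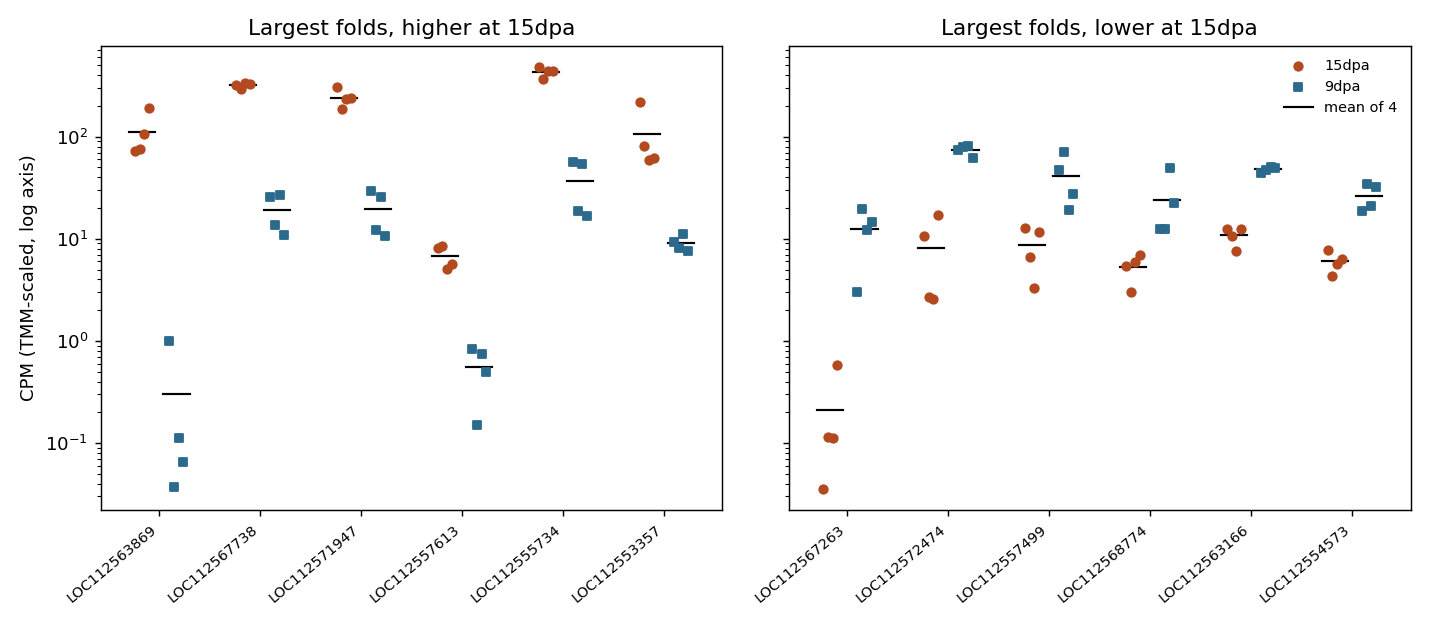
CPM of every 15dpa library (circles) and 9dpa library (squares), on a log axis, for the 6 genes of largest fold in each direction, with a line at each mean of 4. The genes were chosen among those whose libraries do not overlap. LOC112567738, LOC112571947 and LOC112555734 show 9dpa replicates 1 and 3 above replicates 2 and 4.

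The 316 returning genes had covered part of the way back. Among the 307 of them with at least 1 CPM in Intact, the median level, in percent of the Intact mean, was 2.87 on day 1, 3.14 on day 3, 4.93 on day 6, 11.5 on day 9, 30.03 on day 12, 26.1 on day 15, 33.9 on day 21 and 45.2 on day 28. The values in Intact and at 1, 9 and 15 dpa chose these genes, so those levels are a description. The other times entered the choice only through the shared fit. At 28dpa 244 of the 316 were still called lower than Intact and 9 higher. Over all genes tested 14.9% were called lower and 14.9% higher there. Of the 1290 lost genes 659, or 51.1%, were called lower. For comparison, the median over all 1290 lost genes, called or not, was 34.1% on day 9, 44.0% on day 15 and 61.2% on day 28 over the 1099 with at least 1 CPM in Intact. Of the 316, 196 had a higher mean at 12dpa than at either 9dpa or 15dpa, 109 lay between the 2 groups at 12dpa and 11 lay below both.

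A separate group of rises had not been lost at amputation and had its highest mean of all 9 groups at 15dpa. This group of 204 genes, 26.1% of the rises, was formed after the values had been seen and is a description only. Its median log2 fold change over 9dpa was 1.197, and 131 of the genes rose by 2-fold or more. Among the 123 with at least 1 CPM in Intact, the median level was 103.3% of Intact on day 9, 114.8% on day 12, 189.6% on day 15, 127.5% on day 21 and 117.9% on day 28. Of the 204 genes, 68 were lower at 12dpa than at 9dpa and 15dpa alike. Of all rises, 218, or 27.9%, had their highest of 9 means at 15dpa, against 5.26% of all genes. The choice of genes with a high 15dpa level raises that count.

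LOC112557613 is an example from the genes of largest fold. It had 8.07, 8.53, 5.06 and 5.67 CPM at 15dpa, against 0.831, 0.149, 0.745 and 0.491 CPM at 9dpa (log2 fold change 3.63 ± 0.528 SE, adjusted p = 1.95e-05 by edgeR). The mean of every other group lay between 0.350 and 1.30 CPM, including 0.486 ± 0.499 CPM at 12dpa and 1.15 ± 0.871 CPM at 21dpa, so that this gene was high at 15dpa alone among the 9 groups. LOC112553357 had 220.4, 81.4, 59.2 and 62.0 CPM at 15dpa and 9.30, 8.13, 11.03 and 7.59 CPM at 9dpa (log2 fold change 3.56 ± 0.375 SE, adjusted p = 9.1e-08 by edgeR). The value of 15dpa replicate 1 stands apart, and without that library the log2 fold change was 2.91 (adjusted p = 9e-08). Unlike these 2, LOC112563869 was called lost (log2 fold change of 1dpa over Intact -4.07, adjusted p = 0.0245, edgeR), though its mean too was highest at 15dpa. Its Intact libraries ranged from 0 to 70.4 CPM around a mean of 17.7 CPM, so that label rests mainly on the highest of them. Its fold was the largest of the 26 named genes, 8.59 ± 1.87 on the log2 scale (adjusted p = 0.00322), with 71.8, 75.8, 107 and 192 CPM at 15dpa and 0.989, 0.0373, 0.112 and 0.0654 CPM at 9dpa. It varied widely in the other groups, with 17.7 ± 35.2 CPM in Intact and 59.4 ± 61.8 CPM at 21dpa, SDs above their means, and without 9dpa replicate 1 its log2 fold change was 10.52. With limma-voom its call was lost (adjusted p = 0.160).

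**Figure D4:**
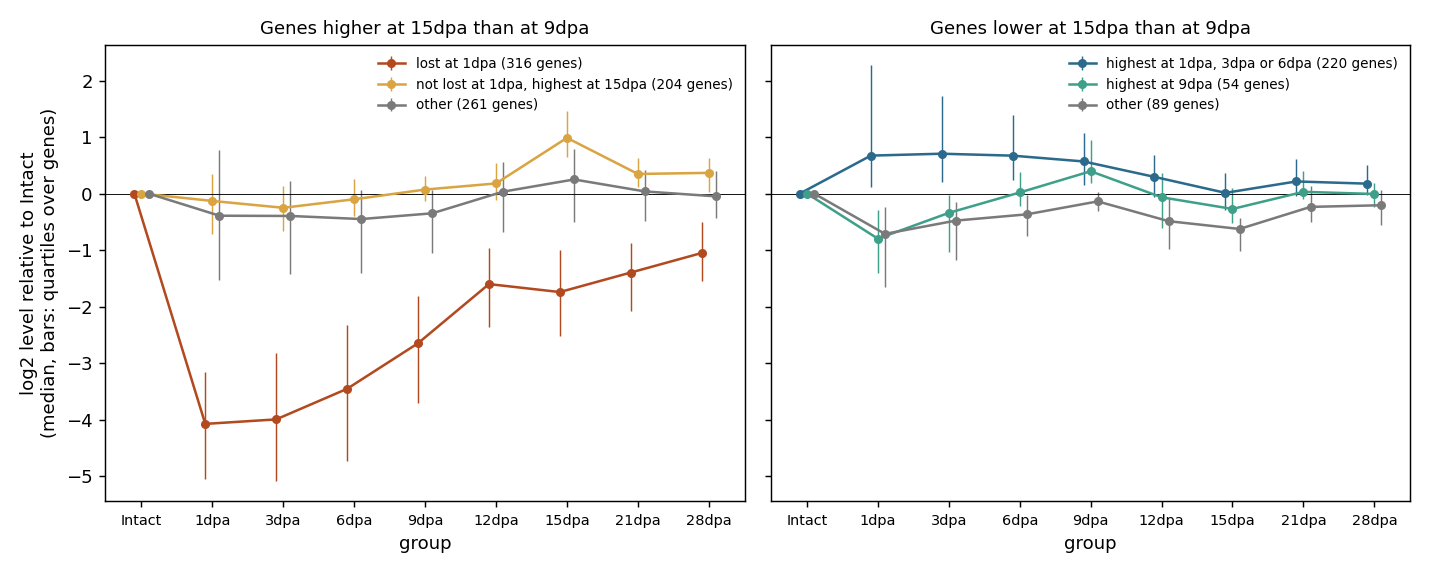
Median log2 level relative to Intact, on log2(CPM + 0.5), in each of the 9 groups, with bars for the quartiles over genes. Left, the 781 genes higher at 15dpa, split into those lost at 1dpa (316), those not lost and highest at 15dpa (204) and the other 261. Right, the 363 genes lower at 15dpa, split by the group of their highest mean. The lost genes climb from -4.08 at 1dpa to -1.05 at 28dpa, and the second group stands out from Intact mainly at 15dpa.

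The falls were smaller than the rises. Of the 363 genes that fell, 220 had their highest mean at 1dpa, 3dpa or 6dpa, 54 at 9dpa and 89 in another group. The 220 are 60.6% of the falls, against 50.8% of all genes tested with their highest mean at 1dpa, 3dpa or 6dpa. The choice of falls bears on this share, since by choice none was highest at 15dpa, where 5.26% of all genes were. In the 213 of the first set with at least 1 CPM in Intact, the median level in percent of Intact was 158.5 on day 1, 163.9 on day 3, 160.5 on day 6, 148.1 on day 9, 124 on day 12, 101.4 on day 15, 116.2 on day 21 and 112.5 on day 28. The 40 highest at 9dpa with at least 1 CPM in Intact had a median of 121% on day 9, 76.1% on day 15 and 99.0% on day 21, and the 83 remaining ones 90.2%, 62.3% and 84.7% on those days. These sets were formed by the fall itself and by the group of the highest mean, so their levels are a description only. Of all falls 200 were nearer to Intact at 15dpa than at 9dpa, 55.1% against 50.05% of all genes. In 103 of the 363 genes 15dpa had the lowest mean of all 9 groups, 28.4% against 6.14% of all genes. The choice of genes with a low 15dpa level raises that share. Genes raised at 1dpa by a log2 fold change of 3 or more, 680 or 3.92% of those tested, were called lower at 15dpa in 42 cases and higher in 11. That is 6.18% called lower against 2.09% of all genes, and a median log2 fold change of -0.18. Their summed share of counts was 1.43 ± 0.356% at 15dpa and 1.69 ± 0.119% at 9dpa (SD, n = 4 each) and did not pass the test (exact permutation test, p = 0.229), with 15dpa replicate 4, at 1.89%, above all 9dpa libraries.

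LOC112563166 had the smallest p among the falls without overlap. It had 12.6, 10.7, 7.65 and 12.4 CPM at 15dpa, against 43.8, 47.3, 50.5 and 49.7 CPM at 9dpa (log2 fold change -2.14 ± 0.174 SE, adjusted p = 7.83e-10 by edgeR). Its mean was 12.4 ± 2.87 CPM in Intact, 86.6 ± 11.3 on day 6, 47.8 ± 3.02 on day 9, 22.02 ± 3.84 on day 12 and 10.8 ± 2.29 on day 15. LOC112554573, highest at 3dpa with 211 ± 22.1 CPM, had 7.71, 4.30, 5.70 and 6.36 CPM at 15dpa and 18.7, 34.2, 21.2 and 32.0 CPM at 9dpa (log2 fold change -2.14 ± 0.273, adjusted p = 2.81e-06). LOC112562715 and LOC112557415 took a similar course, each highest at 1dpa. LOC112562715 had 92.2, 68.0, 75.5 and 69.7 CPM at 15dpa and 192, 184, 180.4 and 380.4 CPM at 9dpa, after 1271 ± 362 CPM at 1dpa (log2 fold change -1.62 ± 0.183 SE, adjusted p = 3.06e-07 by edgeR). LOC112557415 had 72.5, 45.4, 51.8 and 52.2 CPM at 15dpa and 137, 121, 127 and 242 CPM at 9dpa, after 912 ± 275 CPM at 1dpa (log2 fold change -1.50 ± 0.187 SE, adjusted p = 1.79e-06 by edgeR). In both, 9dpa replicate 4 was the highest library. LOC112563129, highest at 6dpa, averaged 3.75 ± 1.33 CPM at 15dpa against 13.01 ± 1.395 CPM at 9dpa (log2 fold change -1.79 ± 0.222, adjusted p = 1.5e-06).

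Of the 4 genes with the largest drop in CPM, LOC112573645, LOC112558563 and LOC112573535 had been higher at 1dpa than in Intact, while LOC112554475 was called neither way there (log2 fold change 0.08, adjusted p = 0.724, edgeR). LOC112573645 had 846, 519, 559.6 and 399 CPM at 15dpa and 1648, 1313, 1268 and 1591 CPM at 9dpa (log2 fold change -1.32 ± 0.224 SE, adjusted p = 0.00017 by edgeR). Its mean was 229.9 ± 79.8 CPM in Intact, reached 5056 ± 676 CPM at 3dpa, and at 28dpa, at 462 ± 101 CPM, was still above Intact (adjusted p = 0.000869). LOC112558563 averaged 306 ± 52.4 CPM at 15dpa against 583 ± 75.3 CPM at 9dpa (log2 fold change -0.93 ± 0.159, adjusted p = 0.000198), after 5050.2 ± 1236 CPM at 1dpa. LOC112573535 averaged 791 ± 139 CPM at 15dpa against 1461 ± 136 CPM at 9dpa (log2 fold change -0.89 ± 0.220 SE, adjusted p = 0.0108 by edgeR), and lost its call without 15dpa replicate 4 (adjusted p = 0.0504). LOC112554475 averaged 576 ± 101 CPM at 15dpa against 943 ± 89.8 CPM at 9dpa (log2 fold change -0.71 ± 0.200 SE, adjusted p = 0.0253 by edgeR). Its call was lost in 6 of the 8 fits that left out a library, with adjusted p-values from 0.0525 to 0.101.

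Several of the largest falls were less steady between libraries. LOC112567263 had 0.0357, 0.113, 0.113 and 0.585 CPM at 15dpa and 3.05, 19.7, 12.1 and 14.6 CPM at 9dpa (log2 fold change -5.84 ± 1.76 SE, adjusted p = 0.0413 by edgeR). The call was lost in 7 of the 8 fits that left out a library (adjusted p from 0.0643 to 0.106), and without 15dpa replicate 4 the log2 fold change was -7.09. With limma-voom the adjusted p was 0.254. LOC112557499, with 8.61 ± 4.45 CPM at 15dpa against 41.1 ± 23.0 CPM at 9dpa, likewise lost its call (log2 fold change -2.25 ± 0.689, adjusted p = 0.0445) in 7 of those 8 fits, with adjusted p-values from 0.0515 to 0.155. It was also lost with no filter on low counts (0.0601) and with the earlier quasi-dispersion of edgeR (0.0628). LOC112568774 had 5.39, 2.98, 5.96 and 7.02 CPM at 15dpa and 12.6, 12.3, 49.1 and 22.3 CPM at 9dpa, and its log2 fold change of -2.17 ± 0.510 (adjusted p = 0.00696) became -1.56 (adjusted p = 0.0658) without 9dpa replicate 3. LOC112572474 kept its call in all 8 fits. It had 10.6, 2.68, 2.55 and 17.04 CPM at 15dpa and 74.4, 79.9, 82.0 and 62.2 CPM at 9dpa (log2 fold change -3.18 ± 0.625 SE, adjusted p = 0.00127 by edgeR), and -3.81 without 15dpa replicate 4. Its course had a second high at 21dpa, at 59.7 ± 43.0 CPM, and 61.9 ± 30.6 CPM in Intact.

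Lists drawn from other times place the change in the longer course. The comparison of 28dpa with 21dpa has no group in common with that of 15dpa with 9dpa. Both come from the same fit with a shared estimate of spread, so their calls are not fully independent. Of the 91 genes higher at 28dpa than at 21dpa (0.525% of the genes tested), 56 were also higher at 15dpa than at 9dpa, 61.5% against 4.5% of all genes, and the median log2 fold change was 0.69. These 56 are 7.17% of the rises. Of the 91, 61 are lost genes, and 2 were lower at 15dpa, LOC112556358 with 2.77 ± 0.856 CPM at 15dpa against 4.78 ± 1.06 CPM at 9dpa and LOC112559536 with 1.47 ± 0.472 CPM at 15dpa against 4.45 ± 0.731 CPM at 9dpa. Among the 87 with at least 1 CPM in Intact, the median level was 11.8% of Intact on day 9, 18.2% on day 15, 28.5% on day 21 and 46.6% on day 28. Of the 68 genes lower at 28dpa than at 21dpa (0.392% of those tested), 14 were higher at 15dpa, 20.6% against 4.5% of all genes, and 2 lower, LOC112556170 and LOC112560010. The share called higher was thus above that of all genes in both lists, though they move in opposite directions after 21dpa.

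Of 2591 genes lower at 28dpa than in Intact (14.9% of those tested), 328 were higher at 15dpa than at 9dpa and 56 lower, 12.7% and 2.16%, and they are 42.0% of all rises. Of 2578 genes higher at 28dpa than in Intact (14.9%), 124 were higher and 85 lower, or 4.81% and 3.30%, against 4.5% and 2.09% of all genes. The share called higher was thus near that of all genes, and the share called lower was above it. The 124 became 79 without 9dpa replicate 2. Of 1236 genes higher at 6dpa than at 3dpa by 2-fold or more (7.13%), 93 were higher at 15dpa and 38 lower, or 7.52% and 3.07%. Of 453 genes lower at 6dpa than at 3dpa by 2-fold or more (2.61%), 28 were lower at 15dpa and 15 higher, or 6.18% and 3.31%, and the 28 became 18 without 15dpa replicate 3. Of the 100 genes most abundant in Intact 19 were higher at 15dpa, or 19% against 4.5% of all genes, and LOC112573535 and LOC112570928 were lower, LOC112570928 with 622 ± 35.9 CPM at 15dpa against 726 ± 61.3 CPM at 9dpa (log2 fold change -0.22 ± 0.0693, adjusted p = 0.048, edgeR). The lists overlap, since 659 of the 2591 and 399 of the 1236 are lost genes.

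**Figure D5:**
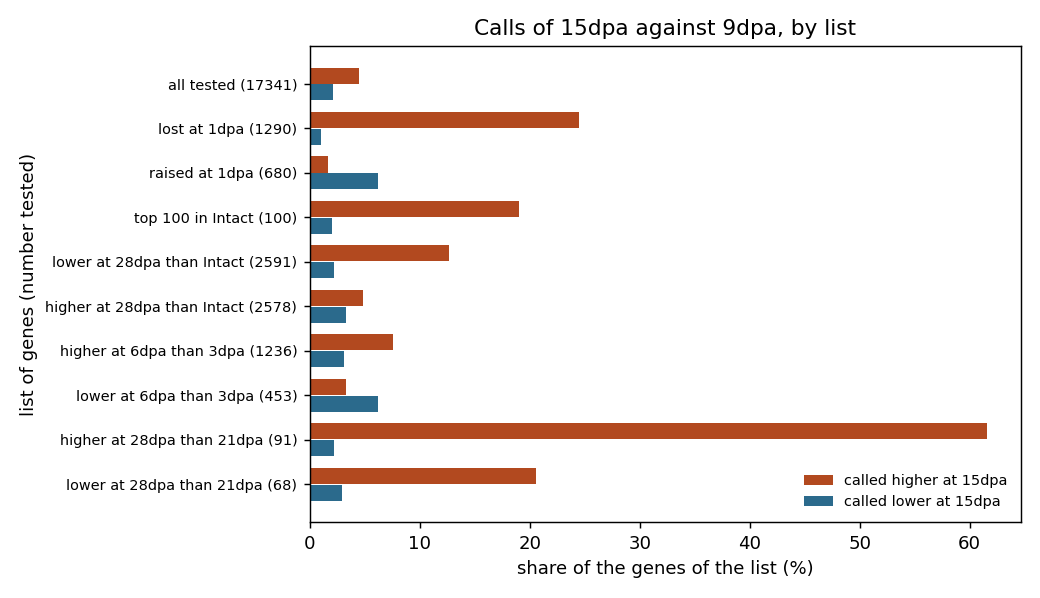
Share of each list, in percent, called higher or lower at 15dpa than at 9dpa, with the number of genes tested in each list. The list of genes higher at 28dpa than at 21dpa has the largest share called higher, 61.5%, followed by the genes lost at 1dpa with 24.5%, against 4.5% of all genes.

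The 12dpa libraries, left out of the contrast, did not always lie between its ends. The 12dpa libraries differed from the mean of 9dpa and 15dpa in 5880 genes, 33.9% of those tested, 3350 higher and 2530 lower (edgeR quasi-likelihood test, adjusted p below 0.05). Scaled by library size alone, 39.9% of these calls were upward in place of 57.0%. Of the calls of 2-fold or more, 314 went up at 12dpa and 763 down. By the group means, 12dpa lay between 9dpa and 15dpa in 358 of the 781 rises, above both in 311 and below both in 112, and for the 363 falls in 206, 68 and 89. Over all 17341 genes the counts were 3729 between, 6956 above and 6656 below.

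The comparisons of 12dpa with 9dpa and of 15dpa with 12dpa share libraries with the net change, so their values are only set side by side. For LOC112567738 the log2 fold change was 4.93 for 12dpa over 9dpa and -0.88 for 15dpa over 12dpa (adjusted p = 1.05e-07 and 0.155, edgeR). For LOC112555961 it was 2.55 and -0.66 (adjusted p = 7.74e-18 and 1.2e-05). LOC112557613 moved only in the later interval, with -0.11 and 3.74 (adjusted p = 0.934 and 7.29e-06), while LOC112563166 fell in both, by -1.12 and -1.02 (adjusted p = 6.33e-06 and 6.71e-05). LOC112572474 had -4.17 and 1.00 (adjusted p = 2.39e-05 and 0.286).

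Libraries of a group differed in the level of the returning genes. Over the 316 returning genes, the median log2 offset from the group mean was 0.16 in 15dpa replicate 1 and between -0.08 and -0.01 in the other 15dpa libraries. At 9dpa it was 0.16 in replicate 1, 0.09 in replicate 3, -0.09 in replicate 2 and -0.15 in replicate 4. Over all genes tested these medians lay between -0.01 and 0.03. 15dpa replicate 1 was also the highest 15dpa library for 50.5% of the 220 falls that were highest soon after the cut. That was not particular to these falls. The share was 60.8% in the 316 returning genes and 40.7% in the 204 rises not lost and highest at 15dpa. It was 42.7% in the 89 falls highest in another group, and lower, at 26.4%, in the 261 other rises. The same share over all genes tested is not given here. What sets these libraries apart was not tested.

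Some genes that rose lay next to one another. Of the 781 genes that rose, 162, or 20.7%, had a neighbour in the RefSeq gene table that also rose, against 7.39% of all genes tested. Of the 363 that fell, 34, or 9.37%, had a neighbour that fell, against 3.71% of all genes tested. Runs of 3 or more neighbours numbered 14 among the rises, with 44 genes, and 4 among the falls, with 12 genes. The 3 runs named here were picked with their values in view. LOC112557613 is followed by LOC112557617, with 14.005 ± 3.54 CPM at 15dpa against 1.85 ± 1.13 CPM at 9dpa, and LOC112557622, with 7.09 ± 1.84 CPM at 15dpa against 1.71 ± 0.523 CPM at 9dpa, and both had 12dpa means, 1.03 and 1.37 CPM, below 9dpa. LOC112553357 is followed by LOC112553361, with 417, 360.3, 312 and 1187 CPM at 15dpa against 77.3, 30.1, 104.4 and 143 CPM at 9dpa, and by LOC112553283. The 4 neighbours LOC112561576, LOC112561587, LOC112561595 and LOC112570506 had log2 fold changes of 2.59, 2.67, 2.41 and 1.15. Their means lay between 95.7 and 588 CPM in Intact and between 0.359 and 8.66 CPM at 1dpa, with 12dpa means above those of 15dpa. How reads that fit several genes were treated is not given in the sources used here, so neighbours with near-identical sequence could share counts.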

How the data were processed

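Polyadenylated RNA of eye stalks was sequenced in 36 libraries, 9 groups of 4, grouped by their labels. The authors deposited raw read counts per gene, and the submitters' processing notes name STAR. Its version, the build, annotation and strand setting: not given in the sources used here. All 21131 identifiers matched symbols in the RefSeq gene table of the assembly ASM307304v1, used only for which genes neighbour each other. Lists by product name and features of proteins, promoters and linkage groups were planned and not used here.

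The test was run with edgeR 4.0.16 under R 4.3.3 (filterByExpr on the 9 groups, TMM, glmQLFit with robust estimation and the newer quasi-dispersion, a mean per group, all 36 libraries in 1 fit, Benjamini-Hochberg adjustment over 17341 genes, threshold 0.05). Standard errors come from the F statistic. Percentages of Intact use genes of at least 1 CPM in Intact, and log levels use a pseudocount of 0.5 CPM. At 25.3 to 30.6 counts per CPM in the compared libraries, genes of few CPM carry a counting error of their own. Single values were compared by exact permutation tests in SciPy 1.17.1.

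Candidates for naming were called genes whose libraries did not overlap and whose larger group mean reached 5 CPM (716 genes). In each direction the 6 of largest fold, the 4 of smallest p and the 4 of largest CPM difference were named, 26 genes in all. The members, lists and rules were chosen with earlier results of these data known. For replicates, chi-square over degrees of freedom was at least 9.66 in every pair, above sampling noise. The fit was tested on simulated data. Alternatives were other scalings and filters, DESeq2 1.42.0, limma-voom (limma 3.58.1), fits to fewer groups, a term for the replicate number and each library left out. The earlier quasi-dispersion of edgeR was added after the data had been seen.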

Additional observations from a re-analysis of the deposited data

Results flagged for a closer look

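In 58 groups of 4 values, the named genes and the 3 summed shares at 15dpa and 9dpa, 6 held a library whose distance to its nearest neighbour took up more of the range than a limit that chance passes in about 1 group in 20. LOC112563869 was at 0.989 CPM in 9dpa replicate 1, with the others between 0.0373 and 0.112 CPM. LOC112553357 was at 220.4 CPM in 15dpa replicate 1, with the others between 59.2 and 81.4 CPM. LOC112563614 was at 37.9 CPM in 15dpa replicate 1, with the others between 33.04 and 33.5 CPM. LOC112567263 was at 0.585 CPM in 15dpa replicate 4, with the others between 0.0357 and 0.113 CPM. LOC112562715 and LOC112557415 were at 380.4 and 242 CPM in 9dpa replicate 4, with the others between 180.4 and 192 CPM and between 121 and 137 CPM.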

How the results depend on the processing

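The 1144 calls of 15dpa against 9dpa became 2272 with limma-voom (1302 higher, 970 lower) and 503 with a minimum log2 fold change of 1. They lay between 782 and 1108 when a library was left out. They were 1149 with the replicate block, 947 with the earlier quasi-dispersion, 919 with only the 9dpa and 15dpa libraries in the fit, of which 720 were shared, and 1174 without the 12dpa libraries. The 5880 calls of 12dpa became 1077 with that fold limit. Calls among genes higher at 28dpa than Intact lay between 79 and 111, and falls among genes lower at 6dpa than 3dpa between 18 and 31, when a library was left out. The difference in the share of the lost genes lay between 1.88 and 2.14 points, with p = 0.0571, the smallest that 3 against 4 libraries can give in the exact permutation test. LOC112562530, from which a large part of that difference came, was kept in each of these. Of 187 such values under alternatives 174 kept their direction and side or stayed within 1.5 times. Of 493 values of named genes 33 lost their call and 0 reversed, and 18 of 26 genes kept their call in every alternative that gave them a value, other than the fold limit. DESeq2 gave an adjusted p for 25 of the 26, not for LOC112567738. Same-numbered libraries of 15dpa and 9dpa had correlated deviations from -0.07 to 0.29 and 1 of 4 was closest to its own number, so the numbers were not taken as pairs. Genes of few CPM are limited by depth.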
